A study of Arabidopsis thaliana with 30 samples.

Results

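The type A response regulators of Arabidopsis thaliana are a family of small proteins that answer the hormone cytokinin. The 10 members were taken by locus code from a matrix of 27655 genes: ARR3 (AT1G59940), ARR4 (AT1G10470), ARR5 (AT3G48100), ARR6 (AT5G62920), ARR7 (AT1G19050), ARR8 (AT2G41310), ARR9 (AT3G57040), ARR15 (AT1G74890), ARR16 (AT2G40670) and ARR17 (AT3G56380). Of these, 9 passed a filter on low counts that left 21256 genes for testing, and ARR17 did not. Messenger RNA was measured in whole seedlings 12 days old of ein2-5 and of the Col-0 wild type. EIN2 relays ethylene perception to the nucleus, and ein2-5 is a mutant of it. Liquid Murashige and Skoog medium (MS) was poured over seedlings for 3 h or 24 h, either with antimycin A (AA) at 20 µM or plain, and other seedlings were left untreated. AA blocks electron transport at complex III in mitochondria. All seedlings had grown on agar plates with MS and sucrose. Each of the 10 groups, made up of AA at 3 h, AA at 24 h, MS at 3 h, MS at 24 h and untreated in each genotype, held 3 libraries.

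Cytokinin is bound by the histidine kinases AHK2, AHK3 and AHK4 in cell membranes. Phosphate then passes to the phosphotransfer proteins (AHP) and on to type B response regulators, which are transcription factors. The type A genes are direct targets of the type B factors and rise within minutes of cytokinin supply, and their proteins dampen the same pathway, so that their transcripts serve as a common readout of cytokinin signalling. The genes form close pairs: ARR3 with ARR4, ARR5 with ARR6, ARR7 with ARR15, ARR8 with ARR9, and ARR16 with ARR17. ARR4 is known to bind phytochrome B, the promoter of ARR5 is a standard cytokinin reporter, and ARR7 and ARR15 are known as regulators of the shoot stem cell niche. EIN3, the transcription factor that acts after EIN2 in ethylene signalling, has been described as a repressor that binds upstream of ARR5, ARR7 and ARR15.

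The stretches just upstream of ARR15, ARR7 and ARR3 are shown because these genes gave the largest differences described here, ARR15 and ARR7 with the medium and, when untreated, with the genotype, and ARR3 with AA at 3 h. Each holds the 250 bases before the annotated transcript start in the TAIR10.1 assembly, all on the minus strand and printed 5′ to 3′ in the direction of the gene: chr1:28133026-28133275 for ARR15, chr1:6579315-6579564 for ARR7 and chr1:22067234-22067483 for ARR3. Capitals mark ATGTA, the core of the motif that EIN3 binds, read on either strand, so that it also appears as TACAT.
ARR15: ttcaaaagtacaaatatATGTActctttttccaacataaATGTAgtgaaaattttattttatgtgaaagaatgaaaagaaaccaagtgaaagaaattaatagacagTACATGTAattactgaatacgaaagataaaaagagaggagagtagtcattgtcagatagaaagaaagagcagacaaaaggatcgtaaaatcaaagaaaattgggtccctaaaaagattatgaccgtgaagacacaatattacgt
ARR7: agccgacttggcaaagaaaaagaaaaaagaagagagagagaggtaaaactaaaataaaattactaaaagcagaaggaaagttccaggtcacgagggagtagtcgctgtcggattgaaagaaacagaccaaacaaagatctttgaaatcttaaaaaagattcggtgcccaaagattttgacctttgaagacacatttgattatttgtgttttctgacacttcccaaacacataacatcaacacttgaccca
ARR3: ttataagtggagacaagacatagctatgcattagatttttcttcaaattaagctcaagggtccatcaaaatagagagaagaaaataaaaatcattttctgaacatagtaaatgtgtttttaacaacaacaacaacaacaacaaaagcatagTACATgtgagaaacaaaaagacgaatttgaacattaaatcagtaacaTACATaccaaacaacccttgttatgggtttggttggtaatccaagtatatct
The ARR15 window held 4 matches, of which the neighbouring pair overlap by 2 bases, the ARR3 window held 2 and the ARR7 window held 0. Windows of the other members held 1 match in ARR8 and none elsewhere, so that 3 of 10 members had the motif against 52.0% of the 27443 windows of all protein-coding genes. AGATT, a short core bound by type B regulators, was found on either strand in 7 of 10 members and in 63.7% of all windows, and the longer AGATACG in 0 of 10 members and in 1.69% of all windows. A match describes the letters of a window and nothing else.

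Library totals ranged from 21.2 to 32.6 M read pairs, with a median of 24.3 M. Levels are given in CPM, counts per M (mega) of the scaled library total, as mean ± SD of 3 libraries. Differences are log2 fold changes ± SE, estimated in a joint fit of the 30 libraries. A gene was called higher or lower at an adjusted p under 0.05 over all tested genes, with edgeR's quasi-likelihood test. The EIN2 transcript was lower in ein2-5 in all 5 conditions, by 1.24 to 1.43 on the log2 scale, which checks the genotype labels. AOX1A, the alternative oxidase induced by a block of complex III, was higher with AA in all 4 comparisons, by 1.77 to 2.88. In ein2-5 in MS at 3 h, replicate 3 differed from replicates 1 and 2 with a chi-square per degree of freedom of 35.9 and 35.2, against 21.2 or less between any other replicates. Where leaving it out changes a call of a member in the 21 planned comparisons, the value is given. Whole seedlings mix organs, and lists of 12 root and 7 shoot markers were detected. Sums over a list of markers mostly reflect its most abundant genes. Among the shoot markers in untreated wild type, RBCS1A stood at 15239 CPM and SPCH at 6.72 CPM. Of the shoot meristem markers, STM stood at group means of 3.37 to 5.66 CPM and CLV3 and WUS at 0.0812 CPM or less. In such bulk samples, fewer cells that express a gene and less RNA per cell cannot be told apart.

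Untreated wild type held the most type A transcript of all groups, with a summed level of the 10 members of 450.3 ± 14.0 CPM. Levels per kilobase of all annotated exons of a gene were used to compare genes, so their order depends on that annotation. Exons came to 2370 bases in ARR8, of which 678 were coding, and to 943 bases in ARR7, of which 621 were coding. On this scale ARR4 led in untreated wild type with 74.3 ± 5.86 CPM per kb, followed by ARR7 at 66.2 ± 8.02, ARR9 at 50.5 ± 7.87 and ARR8 at 24.8 ± 3.74 CPM per kb. ARR6 stood at 20.6 ± 1.20, ARR15 at 17 ± 0.535, ARR5 at 14.7 ± 0.570, ARR3 at 3.33 ± 0.207 and ARR16 at 1.88 ± 0.110 CPM per kb, and ARR17 was at 0. Among neighbours in this order, ARR4 and ARR7, ARR7 and ARR9, and ARR8 and ARR6 lay closer than the sum of their SDs. In untreated ein2-5 the leading genes were again ARR4 at 54.3 ± 6.38, ARR7 at 37.0 ± 3.01 and ARR9 at 35.2 ± 3.91 CPM per kb, while ARR15 stood at 7.02 ± 0.982 CPM per kb. ARR5 was above it there at 8.90 ± 1.03 CPM per kb, closer than the sum of their SDs. In wild type with AA at 3 h, ARR4 at 24.6 ± 1.16 CPM per kb was followed by ARR9 at 16.1 ± 1.59 and ARR7 at 15.1 ± 2.25 CPM per kb. ARR15 stood at 2.11 ± 0.207 CPM per kb in that group, and ARR3 was the lowest of the 9 tested genes at 0.516 ± 0.121 CPM per kb. ARR4 lay far above its close copy ARR3, and ARR7 above ARR15, in every group. ARR5 and ARR6 lay closer together in some groups, at 3.10 ± 0.662 and 3 ± 0.530 CPM per kb in ein2-5 with AA at 3 h.

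**Figure D1:**
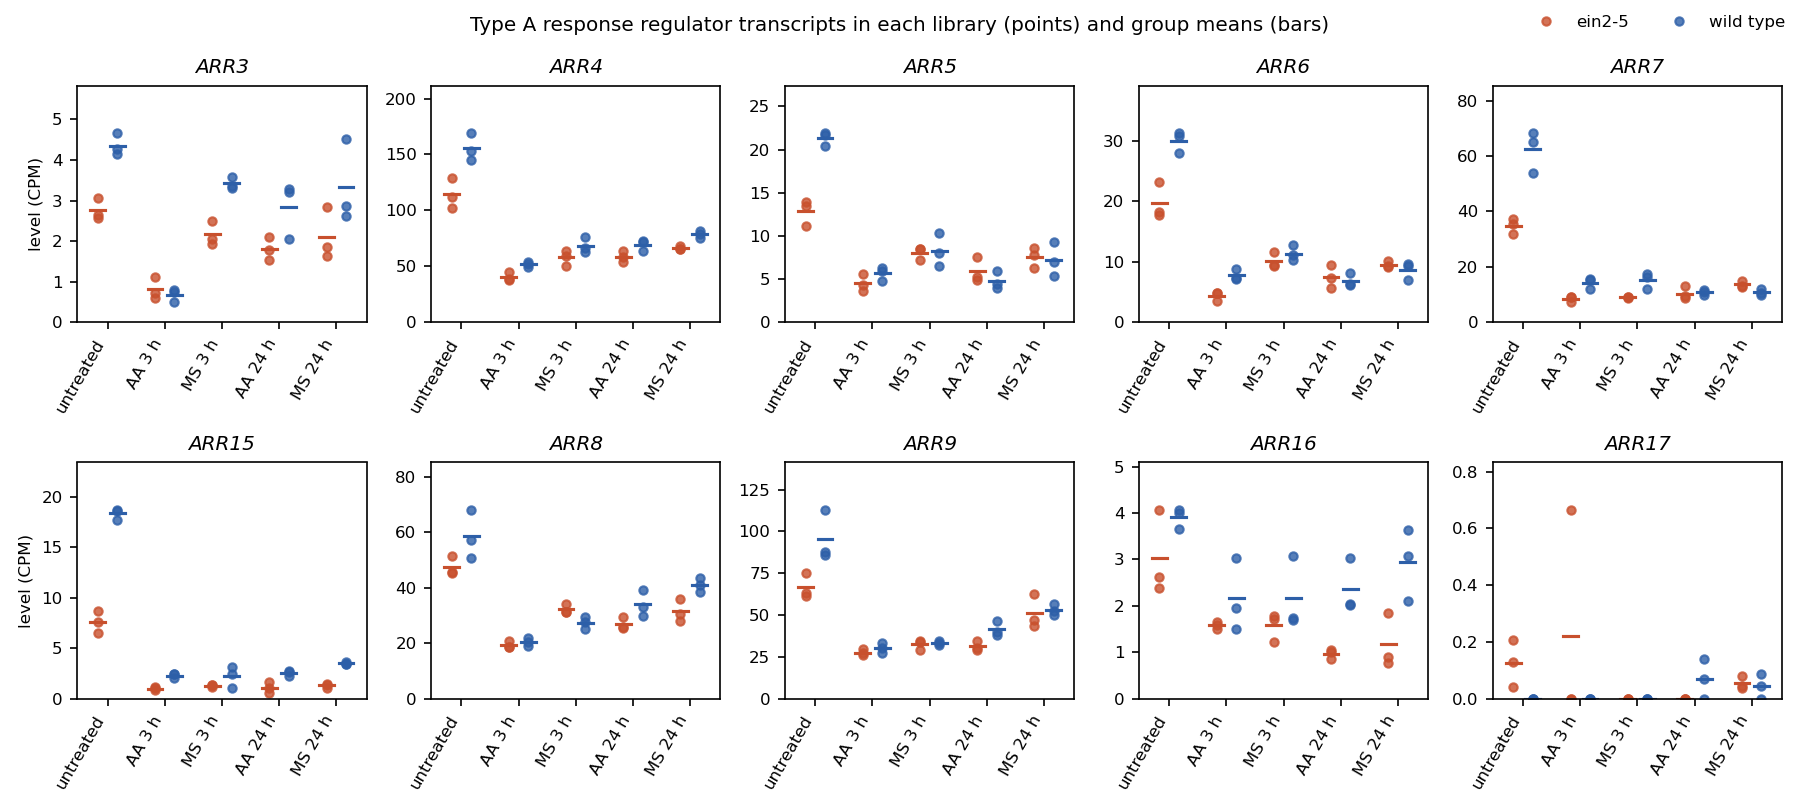
Level in CPM (y axis, a scale of its own for each gene) of the 10 type A genes in each of the 30 libraries (points) by condition (x axis) and genotype (colour), with group means as bars. Untreated seedlings are highest for most members, as for ARR15 with 7.57 CPM in ein2-5 and 18.3 CPM in wild type.

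ARR17 had counts of 0 to 5 in 29 of the 30 libraries. It had 0 counts in all 3 libraries of untreated wild type, of MS at 3 h in both genotypes, of AA at 3 h in wild type and of AA at 24 h in ein2-5, where a count of 0 allows up to 3 counts per library. The exception was replicate 1 of ein2-5 with AA at 3 h, with 19 counts, against 0 in replicates 2 and 3 of that group. ARR17 is left out of all counts of members that follow.

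MS at 3 h was set against untreated seedlings to see how the members answered the liquid medium itself, which is part of every AA treatment. In wild type, ARR15 had 3.12, 2.41 and 1.1 CPM in MS, against 17.7, 18.7 and 18.6 CPM untreated. No MS library came near an untreated one, and the level was 8.26-fold lower (-3.05 ± 0.24, adjusted p = 1.13e-11). ARR7, its close copy, had 17.4, 16.4 and 12.1 CPM in MS, against 53.8, 65.1 and 68.2 CPM untreated, a difference of -2.03 ± 0.14 (adjusted p = 3.36e-13). The groups again lay apart. ARR9 fell by 1.52 ± 0.12, ARR6 by 1.40 ± 0.16, ARR5 by 1.37 ± 0.19, ARR4 by 1.19 ± 0.10 and ARR8 by 1.1 ± 0.11 on the log2 scale, with adjusted p-values of 8.89e-07 or less. ARR16 stood at 1.74, 1.69 and 3.08 CPM in MS and at 3.65, 4.07 and 4.01 CPM untreated (-0.85 ± 0.30, adjusted p = 0.0269). ARR3 was the member that did not pass, at 3.42 ± 0.151 CPM in MS and 4.36 ± 0.271 CPM untreated (-0.35 ± 0.24, adjusted p = 0.283). In all, 8 of 9 members were lower, beside 17.4% of all tested genes, and 0 were higher, beside 15.8%. The median was -1.37 for the members and 0.00 for all genes. DESeq2 gave 0 higher members too, as did an unadjusted p under 0.05.

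The labels give the time of harvest as the batch, so MS, time and batch cannot be told apart in comparisons with untreated seedlings. The ARR16 call was lost without replicate 1 (adjusted p = 0.120) or 2 (adjusted p = 0.123) in MS, or replicate 2 (adjusted p = 0.067) or 3 (adjusted p = 0.0648) untreated. Of the 12 root markers 1 was higher and 1 lower in MS, with summed levels of 1872 to 2174 CPM in MS and 1663 to 1816 CPM untreated. Of the 7 shoot markers 2 were higher, with sums of 27927 to 32067 CPM in MS and 26042 to 30379.5 CPM untreated, and no marker of either list was at 0 in all libraries of a group. The shoot meristem marker STM was lower in MS (-0.64 ± 0.22, adjusted p = 0.0247), and its groups did not overlap. The part of organ composition in the result was not tested.

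In ein2-5 at 3 h of MS, 8 of 9 members were again lower (14.4% of all genes) and 0 higher (17.3%), with DESeq2 and at an unadjusted p under 0.05 too. The median was -0.97 for the members and 0.02 for all genes. ARR15 had 1.31, 1.33 and 1.11 CPM in MS, against 8.64, 6.52 and 7.55 CPM untreated (-2.59 ± 0.26, adjusted p = 1.99e-09). ARR7 had 9.15, 8.84 and 9.13 CPM in MS, against 37.4, 35.3 and 31.8 CPM untreated (-1.95 ± 0.14, adjusted p = 2.67e-12). For both genes the groups lay apart. ARR9 fell by 1.04 ± 0.12, ARR4 by 0.98 ± 0.10, ARR6 by 0.97 ± 0.16, ARR16 by 0.93 ± 0.31, ARR5 by 0.68 ± 0.19 and ARR8 by 0.56 ± 0.11 on the log2 scale. ARR3 did not pass (-0.36 ± 0.25, adjusted p = 0.306). The ARR16 call (adjusted p = 0.0204) was lost without replicate 3 in MS (adjusted p = 0.0991), the library with the high chi-square, or replicate 1 untreated (adjusted p = 0.166). Of the 12 root markers 2 were higher and 2 lower in MS, with sums of 2542 to 3086 CPM in MS and 2069.9 to 2489 CPM untreated. Of the 7 shoot markers 1 was higher and 2 lower, with sums of 21907 to 27921 CPM in MS and 27439 to 28833 CPM untreated. STM was not called there (-0.15 ± 0.21, adjusted p = 0.648). The part of these markers was not tested.

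After 24 h in MS the members were still lower than in untreated seedlings. In ein2-5, 8 of 9 were lower (6.57% of all genes) and 0 higher (8.44%), with a median of -0.79 for the members and 0.00 for all genes. In wild type 7 of 9 were lower (11.1%) and 0 higher (8.78%), with a median of -0.98 for the members and -0.01 for all genes. DESeq2 and an unadjusted p under 0.05 also gave 0 higher in each. ARR15 had 1.49, 1.06 and 1.37 CPM in MS in ein2-5 (-2.53 ± 0.26, adjusted p = 2.07e-08) and 3.46, 3.43 and 3.6 CPM in MS in wild type (-2.39 ± 0.23, adjusted p = 3.45e-09). ARR7 had 12.8, 13.2 and 14.8 CPM in ein2-5, a difference of -1.36 ± 0.14 from untreated, and 12.1, 10.6 and 9.85 CPM in wild type, a difference of -2.52 ± 0.14. For both genes every MS library lay under every untreated library of its genotype. ARR6 fell by 1.05 ± 0.16 in ein2-5 and by 1.79 ± 0.16 in wild type, and ARR5 by 0.76 ± 0.19 in ein2-5 and by 1.57 ± 0.19 in wild type. ARR4 (-0.79 ± 0.10 in ein2-5 and -0.98 ± 0.10 in wild type), ARR8 (-0.59 ± 0.11 in ein2-5 and -0.51 ± 0.11 in wild type) and ARR9 (-0.39 ± 0.12 in ein2-5 and -0.85 ± 0.12 in wild type) were lower too. ARR16 passed in ein2-5 (-1.35 ± 0.32, adjusted p = 0.00302) and not in wild type (-0.41 ± 0.29, adjusted p = 0.362), and ARR3 passed in neither (adjusted p = 0.321 in ein2-5 and 0.285 in wild type). The ARR9 call in ein2-5 (adjusted p = 0.0222) was lost without replicate 2 (adjusted p = 0.107) or 3 (adjusted p = 0.139) in MS or replicate 1 untreated (adjusted p = 0.174). It was also lost when only the libraries compared were fitted (adjusted p = 0.0894). At 24 h 0 of 12 root markers were called in either genotype, and of the 7 shoot markers 1 was higher and 1 lower in ein2-5 and 2 were higher in wild type.

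**Figure D2:**
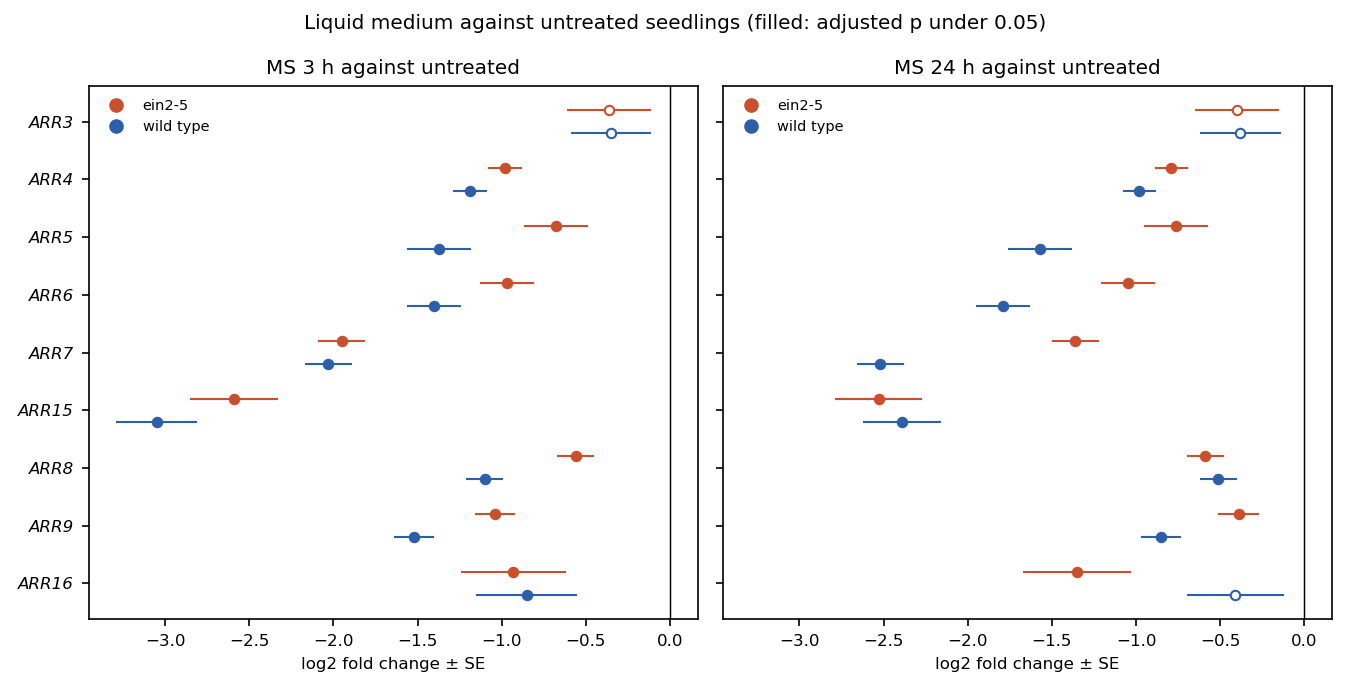
Log2 fold change ± SE (x axis) of MS against untreated seedlings for the 9 tested members (y axis) at 3 h (left) and 24 h (right), in ein2-5 and in wild type (colours), with filled points called at an adjusted p under 0.05. All points lie below 0, from -3.05 for ARR15 in wild type at 3 h to -0.35 for ARR3 in wild type at 3 h.

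Whether MS differed from untreated seedlings to another degree in the mutant was tested with the interaction of MS and genotype. ARR7 passed at 24 h: its difference from untreated was smaller in ein2-5 than in wild type by 1.16 ± 0.19 on the log2 scale (adjusted p = 0.000216), where 4.01% of all genes were called. No other member passed at 24 h, with ARR6 nearest at 0.74 ± 0.22 (adjusted p = 0.0557). DESeq2 called both. At 3 h 0 of 9 members passed (1.47% of all genes called). There, 3 of 9 had an unadjusted p under 0.05, all with a smaller difference in ein2-5, and DESeq2 called 1, ARR8, of the 7 to which it gave an adjusted p. The median of the interaction was 0.43 for the members and 0.04 for all genes at 3 h, and 0.20 for the members and 0.01 for all genes at 24 h. At 24 h, ARR5 also passed without replicate 3 of wild type in MS (adjusted p = 0.0345), and ARR9 without replicate 3 of ein2-5 in MS (adjusted p = 0.0468). ARR6 passed at 24 h without replicate 1 of untreated ein2-5 (adjusted p = 0.0249), and at 3 h ARR8 passed without replicate 3 of untreated wild type (adjusted p = 0.0302).

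Within the medium, members parted between 3 h and 24 h. ARR9 was higher at 24 h than at 3 h in ein2-5 (0.65 ± 0.12, adjusted p = 0.00015) and in wild type (0.67 ± 0.12, adjusted p = 0.000105). Its close copy ARR8 had 40.9, 38.6 and 43.7 CPM at 24 h and 29.6, 25.1 and 27.5 CPM at 3 h in wild type (0.58 ± 0.11, adjusted p = 0.000147). In ein2-5 ARR8 had 36.0, 27.9 and 30.6 CPM at 24 h and 34.0, 31.4 and 31.4 CPM at 3 h (-0.04 ± 0.11, adjusted p = 0.868). The wild-type groups lay apart and the ein2-5 groups overlapped, and the genotypes differed in this step by -0.62 ± 0.15 (adjusted p = 0.0278). ARR7 was higher at 24 h in ein2-5 (0.59 ± 0.15, adjusted p = 0.00325) and lower at 24 h in wild type (-0.49 ± 0.14, adjusted p = 0.0139), a difference of 1.08 ± 0.20 between genotypes (adjusted p = 0.00271). These differences between genotypes were tested after the data had been seen, and 1.76% of all genes were called in that test. They were computed in the full fit only, which held the library with the high chi-square, and were not repeated without any library. At 24 h against 3 h, 2 of 9 members were higher in ein2-5 (10.1% of all genes) and 0 lower (10.5%), also with DESeq2 and at an unadjusted p under 0.05. In wild type 2 were higher (9.12%) and 1 lower (9.28%). The ARR7 call in wild type was lost without replicate 1 (adjusted p = 0.0993) or 2 (adjusted p = 0.0635) at 3 h or replicate 3 at 24 h (adjusted p = 0.0807). ARR15 in wild type (0.66 ± 0.25, adjusted p = 0.0702) passed without replicate 1 at 3 h, at a log2 fold change of 1 (adjusted p = 0.0113). The meristem marker STM was higher at 24 h in wild type (0.65 ± 0.22, adjusted p = 0.0378), with overlapping groups. It was not called in ein2-5 (-0.13 ± 0.21, adjusted p = 0.747), and its part in the result was not tested.

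ein2-5 was then set against wild type in untreated seedlings, to see what the block of ethylene signalling does to the members without any liquid. The summed level of the members was 309 ± 31.6 CPM in ein2-5 and 450.3 ± 14.0 CPM in wild type. ARR15 had 8.64, 6.52 and 7.55 CPM in ein2-5, against 17.7, 18.7 and 18.6 CPM in wild type, 2.42-fold lower (-1.28 ± 0.22, adjusted p = 0.000328). ARR7 had 37.4, 35.3 and 31.8 CPM in ein2-5, against 53.8, 65.1 and 68.2 CPM in wild type (-0.84 ± 0.13, adjusted p = 9.76e-05). For both genes each ein2-5 library lay under each wild-type library. ARR5, the usual reporter gene, had 13.9, 11.2 and 13.5 CPM in ein2-5, against 21.9, 20.4 and 21.7 CPM in wild type (-0.72 ± 0.18, adjusted p = 0.0182). ARR6 (-0.61 ± 0.15, adjusted p = 0.0144), ARR9 (-0.52 ± 0.12, adjusted p = 0.00633) and ARR4 (-0.45 ± 0.09, adjusted p = 0.00371) were lower as well, and in each the groups did not overlap. ARR3 had 2.65, 3.07 and 2.58 CPM in ein2-5, against 4.66, 4.27 and 4.14 CPM in wild type, apart but not called (-0.65 ± 0.24, adjusted p = 0.143). ARR8 (-0.30 ± 0.10) and ARR16 (-0.37 ± 0.29) did not pass either. In all, 6 of 9 members were lower, beside 2.82% of all tested genes, and 0 were higher, beside 1.51%. The median was -0.61 for the members and -0.01 for all genes. No member was higher at an unadjusted p under 0.05 or with DESeq2 either, a count of 0 each.

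All tested genes gave 321 higher and 600 lower calls in untreated ein2-5, and 409 higher and 470 lower with upper-quartile factors, under which the members kept their 6 lower calls. The calls of ARR5 and ARR6 were lost without replicate 1 of wild type (adjusted p = 0.0598 for ARR5 and 0.0525 for ARR6) or replicate 2 of ein2-5 (adjusted p = 0.105 for ARR5 and 0.0877 for ARR6). The ARR5 call was also lost without replicate 3 of wild type (adjusted p = 0.0552), and the ARR6 call without replicate 2 of wild type (adjusted p = 0.0536) or replicate 3 of ein2-5 (adjusted p = 0.0767). The ARR9 call was lost without replicate 1 of wild type (adjusted p = 0.0843), while ARR8 passed without replicate 3 of wild type (adjusted p = 0.0372). Root markers had summed levels of 2069.9 to 2489 CPM in ein2-5 and 1663 to 1816 CPM in wild type, with 1 of 12 higher, PYK10, a beta-glucosidase of root endoplasmic reticulum bodies, and 1 lower. Of the 7 shoot markers 0 were called, and their sums overlapped (27439 to 28833 CPM in ein2-5 and 26042 to 30379.5 CPM in wild type). The part of organ composition was not tested.

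In liquid, fewer members were called between the genotypes than in untreated seedlings. A lower count of calls is not a tested difference. In the interaction of MS and genotype, 0 of 9 members passed at 3 h and ARR7 alone passed at 24 h. At 3 h of AA, 4 of 9 members were lower in ein2-5 (2.95% of all genes called lower and 4.86% higher). ARR15 had 1.12, 1.01 and 0.808 CPM in ein2-5, against 2.44, 2.39 and 2.03 CPM in wild type. ARR6 had 4.80, 4.83 and 3.47 CPM in ein2-5, against 7.16, 8.75 and 7.38 CPM in wild type. Neither overlapped between the genotypes, and ARR7 (-0.76 ± 0.15) and ARR4 (-0.35 ± 0.10) were lower too. In MS at 3 h only ARR7 passed (4.55% of all genes called lower and 5.87% higher), with 9.15, 8.84 and 9.13 CPM in ein2-5, against 17.4, 16.4 and 12.1 CPM in wild type (-0.76 ± 0.15, adjusted p = 0.000661). DESeq2 called ARR15 there too. The groups of ARR7 did not overlap at 3 h in either liquid.

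After 24 h ARR7 no longer passed, at 8.69, 9.29 and 13 CPM in ein2-5 and 10.7, 11.5 and 9.92 CPM in wild type with AA (-0.05 ± 0.15). It stood at 12.8, 13.2 and 14.8 CPM in ein2-5 and 12.1, 10.6 and 9.85 CPM in wild type in MS (0.32 ± 0.14, adjusted p = 0.162). The genotypes overlapped with AA, and in MS each ein2-5 library lay above each wild-type library. ARR15 was still lower in ein2-5, by 1.20 ± 0.28 with AA and by 1.42 ± 0.27 in MS on the log2 scale, and ARR16 was lower by 1.29 ± 0.33 with AA and by 1.31 ± 0.32 in MS. ARR16 had 1.01, 1.04 and 0.852 CPM in ein2-5, against 2.02, 3.04 and 2.03 CPM in wild type with AA. ARR8 was lower in both liquids (-0.33 ± 0.11 with AA and -0.38 ± 0.11 in MS), and ARR9 with AA (-0.40 ± 0.12). These were 4 of 9 members with AA, beside 4.41% of all genes called lower and 5.50% higher, and 3 of 9 in MS, beside 4.65% called lower and 6.74% higher. The count of higher members was 0 in each of the 4 liquid conditions, also with DESeq2. At an unadjusted p under 0.05 ARR8 was higher in MS at 3 h and ARR7 in MS at 24 h.

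Several of these calls rested on the full set of libraries. In the AA seedlings at 3 h, ARR4 was lost without replicate 1 (adjusted p = 0.0551) or 3 (adjusted p = 0.0915) of wild type or replicate 2 (adjusted p = 0.111) or 3 (adjusted p = 0.108) of ein2-5. In MS at 3 h ARR15 passed without replicate 3 of wild type (-1.14, adjusted p = 0.00475). In MS at 24 h ARR8 was lost without replicate 3 of wild type (adjusted p = 0.087) or replicate 2 (adjusted p = 0.111) or 3 (adjusted p = 0.056) of ein2-5, and ARR3 passed without replicate 3 of ein2-5 (adjusted p = 0.0251). In the AA seedlings at 24 h, ARR8 was lost without replicate 1 (adjusted p = 0.297) or 2 (adjusted p = 0.0643) of wild type or replicate 1 (adjusted p = 0.137) or 2 (adjusted p = 0.171) of ein2-5. There, ARR9 was lost without replicate 1 of wild type (adjusted p = 0.181) or replicate 1 (adjusted p = 0.0949) or 2 (adjusted p = 0.145) of ein2-5. Without replicate 2 of wild type ARR16 was lost (adjusted p = 0.0643) and ARR3 passed (adjusted p = 0.045). Across the 4 liquid conditions 1 or 2 of the 12 root markers were higher and at most 1 lower in ein2-5, and 1 to 4 of the 7 shoot markers were lower, a part in the result that was not tested.

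**Figure D3:**
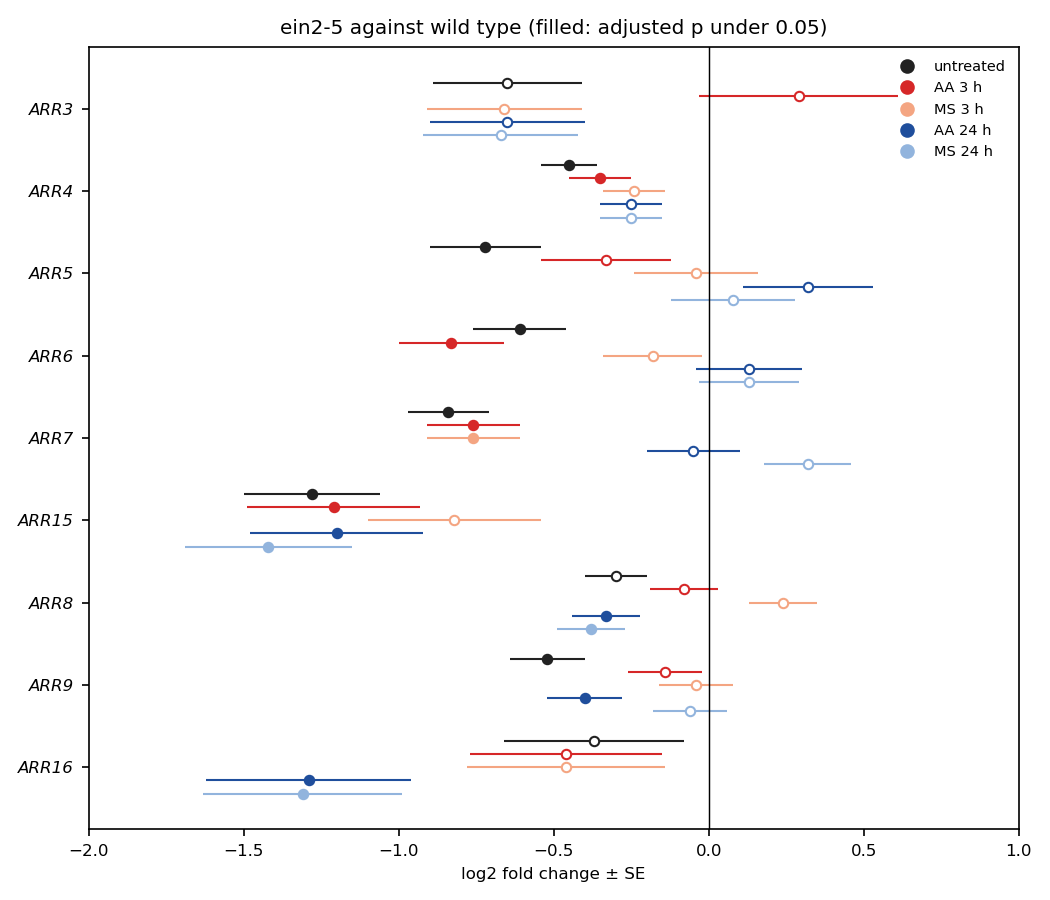
Log2 fold change ± SE (x axis) of ein2-5 against wild type for the 9 tested members (y axis) in each of the 5 conditions (colours), with filled points called at an adjusted p under 0.05. ARR15 lies lowest when untreated, at -1.28, and in MS at 24 h, at -1.42, and ARR7 runs from -0.84 when untreated to 0.32 in MS at 24 h.

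AA was set against MS at the same time to see which members answered the block of complex III. At 3 h, ARR3 was the member with the largest difference in both genotypes. It had 1.12, 0.730 and 0.606 CPM with AA, against 2.50, 2.06 and 1.93 CPM with MS in ein2-5 (-1.38 ± 0.28, adjusted p = 0.000635). Wild type had 0.738, 0.795 and 0.497 CPM with AA, against 3.37, 3.30 and 3.59 CPM with MS, 5.02-fold lower (-2.33 ± 0.28, adjusted p = 2.55e-07). The AA libraries lay under the MS libraries in both genotypes, at 13 to 32 counts with AA and 47 to 85 counts with MS. At 3 h, ARR3 is thus the member with the smallest difference in the medium and the largest with AA in each genotype. ARR6 had 4.80, 4.83 and 3.47 CPM with AA, against 9.40, 9.22 and 11.7 CPM with MS in ein2-5 (-1.21 ± 0.17, adjusted p = 4.19e-06). In wild type it had 7.16, 8.75 and 7.38 CPM with AA, against 12.7, 11.1 and 10.3 CPM with MS (-0.55 ± 0.16, adjusted p = 0.0231). The groups did not overlap in either genotype.

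ARR8 was lower with AA by 0.73 ± 0.11 in ein2-5 and by 0.42 ± 0.11 in wild type on the log2 scale, and ARR4 by 0.51 ± 0.10 in ein2-5 and by 0.40 ± 0.10 in wild type. ARR5 passed in ein2-5 (-0.83 ± 0.20, adjusted p = 0.00454) and not in wild type (-0.54 ± 0.20, adjusted p = 0.0911). The other 4 members had no call at 3 h. ARR7 stood at -0.10 ± 0.15 in ein2-5 and -0.11 ± 0.14 in wild type, and ARR15 at -0.35 ± 0.30 in ein2-5 and 0.04 ± 0.26 in wild type. ARR9 stood at -0.24 ± 0.12 in ein2-5 and -0.13 ± 0.12 in wild type, and ARR16 at -0.01 ± 0.32 in ein2-5 and -0.01 ± 0.31 in wild type. ARR7 and ARR15 thus had the largest differences between MS and untreated seedlings at 3 h, with which time and batch also go. Neither was called with AA against MS at that time. In all, 5 of 9 members were lower in ein2-5 (6.22% of all genes called lower and 6.62% higher) and 4 of 9 in wild type (3.80% lower and 6.20% higher). The median was -0.51 for the members in ein2-5 and -0.40 in wild type, and -0.01 over all genes in each. In both genotypes 0 members were higher, with DESeq2 and at an unadjusted p under 0.05 too. AA and the medium comparison share the MS libraries, so their values are not independent.

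In wild type at 3 h, the ARR6 call was lost without replicate 1 (adjusted p = 0.117) or 3 (adjusted p = 0.0931) with AA or replicate 1 (adjusted p = 0.136) or 2 (adjusted p = 0.0533) in MS. The ARR8 call was lost without replicate 2 with AA (adjusted p = 0.0793) or replicate 1 in MS (adjusted p = 0.0845). The ARR4 call was lost without replicate 2 in MS (adjusted p = 0.0639), and ARR5 passed without replicate 3 in MS (adjusted p = 0.0435). In ein2-5 all 5 calls held without any of the 6 libraries, the MS library with the high chi-square included. Root markers moved with AA at 3 h: 4 of 12 were lower in each genotype, the root hair genes RHD6, EXPA7 and COBL9 and PYK10. Their summed level was 1517 to 1749.8 CPM with AA and 2542 to 3086 CPM with MS in ein2-5. In wild type it was 1074 to 1229 CPM with AA and 1872 to 2174 CPM with MS, and none of the 12 was at 0 in a whole group. Of the 7 shoot markers 0 were called in either genotype. The part of root transcripts in the result was not tested.

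At 24 h of AA few members differed from MS. In ein2-5 ARR9 was lower (-0.70 ± 0.12, adjusted p = 0.000119), with 30.4, 28.9 and 34.6 CPM with AA, against 62.6, 46.8 and 43.4 CPM with MS. In wild type ARR9 had 46.5, 38.1 and 39.7 CPM with AA, against 49.8, 52.2 and 56.7 CPM with MS (-0.35 ± 0.12, adjusted p = 0.0468). ARR5 in wild type had 5.97, 4.37 and 3.95 CPM with AA, against 7, 5.31 and 9.24 CPM with MS (-0.60 ± 0.21, adjusted p = 0.0494). The ARR9 groups lay apart in both genotypes and the ARR5 groups overlapped. ARR3 no longer passed, at 1.78, 1.54 and 2.11 CPM with AA, against 1.85, 1.62 and 2.83 CPM with MS in ein2-5. In wild type it had 3.21, 2.05 and 3.28 CPM with AA, against 4.52, 2.61 and 2.86 CPM with MS. The counts of 1 of 9 lower in ein2-5 and 2 of 9 in wild type stood beside 7.95% of all genes called lower in ein2-5 and 6.50% in wild type. In both genotypes 0 members were higher, beside 5.90% of all genes in ein2-5 and 6.48% in wild type. The count was also 0 by DESeq2 and by an unadjusted p under 0.05. The medians were -0.28 in ein2-5 and -0.31 in wild type, and 0.00 over all genes in each.

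Both calls in wild type at 24 h were lost without replicate 2 with AA (adjusted p = 0.142 for ARR5 and 0.167 for ARR9) or replicate 3 with AA (adjusted p = 0.199 for ARR5 and 0.144 for ARR9). They were also lost without replicate 1 in MS (adjusted p = 0.0902 for ARR5 and 0.059 for ARR9) or replicate 3 in MS (adjusted p = 0.323 for ARR5 and 0.174 for ARR9). ARR9 was lost without replicate 2 in MS too (adjusted p = 0.094), while ARR8 passed without replicate 1 with AA (adjusted p = 0.0281). In ein2-5, ARR6 (adjusted p = 0.0355) and ARR7 (adjusted p = 0.0069) passed without replicate 3 with AA. Root markers were lower in 5 of 12 cases in ein2-5 and in 8 of 12 in wild type, with CASP5 at 0 in all 3 wild-type libraries with AA. Shoot markers were lower in 5 of 7 cases in ein2-5 and in 3 of 7 in wild type. The summed level of the root markers was 1832 to 2192 CPM with AA and 2271 to 2557 CPM with MS in ein2-5, and 1629.7 to 1799 CPM with AA and 1773 to 1836 CPM with MS in wild type. That of the shoot markers was 24519.8 to 25289.6 CPM with AA and 28187 to 33091 CPM with MS in ein2-5, and 26869 to 28026 CPM with AA and 32344 to 33935 CPM with MS in wild type. The part of either list was not tested.

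**Figure D4:**
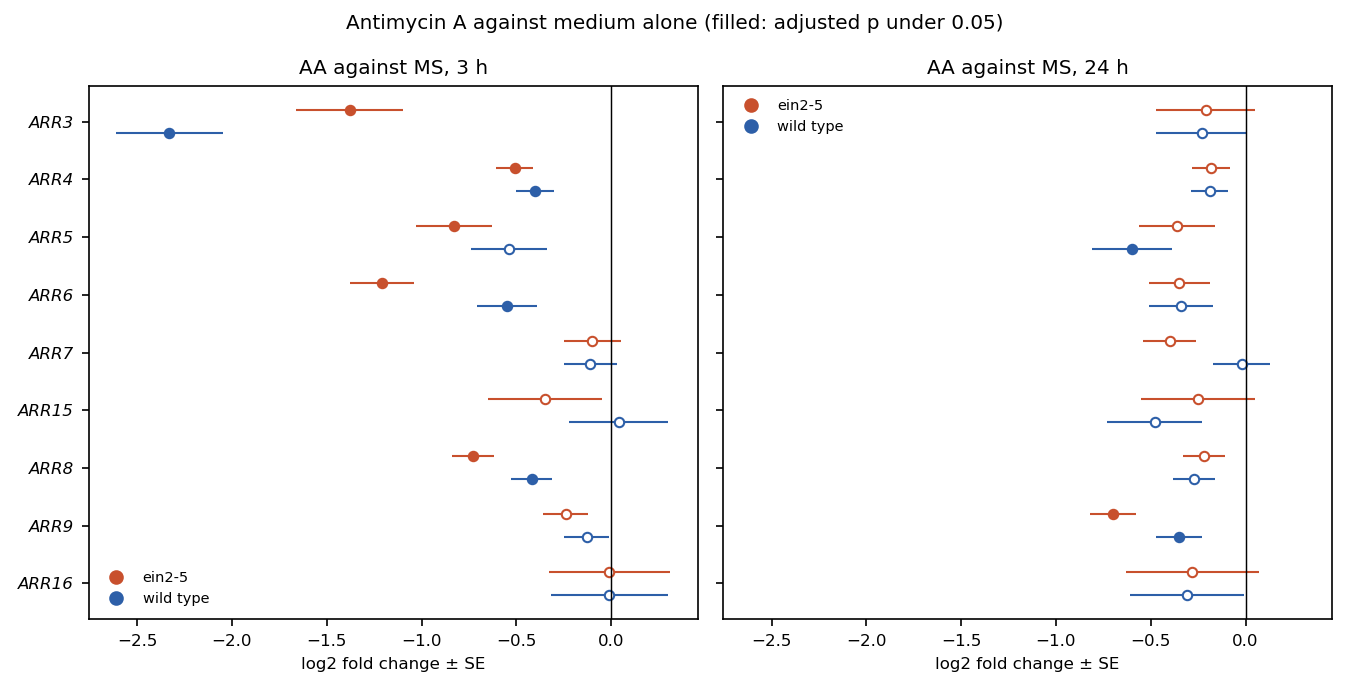
Log2 fold change ± SE (x axis) of AA against MS for the 9 tested members (y axis) at 3 h (left) and 24 h (right), in ein2-5 and in wild type (colours), with filled points called at an adjusted p under 0.05. ARR3 lies at -1.38 in ein2-5 and -2.33 in wild type at 3 h, and ARR7 lies near 0 in both genotypes at 3 h.

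The difference in the AA response between times and genotypes was tested directly. The ARR3 difference between AA and MS was smaller at 24 h than at 3 h, by 1.17 ± 0.38 on the log2 scale in ein2-5 (adjusted p = 0.0453) and by 2.09 ± 0.37 in wild type (adjusted p = 0.00027). In ein2-5 that of ARR6 was smaller at 24 h by 0.86 ± 0.24 (adjusted p = 0.0163) and that of ARR8 by 0.51 ± 0.15 (adjusted p = 0.0309). These were 3 of 9 members in ein2-5 and 1 of 9 in wild type, where 4.30% of all genes in ein2-5 and 2.55% in wild type were called in that direction. In a fit of only the ein2-5 libraries compared, the adjusted p was 0.13 for ARR3, 0.0615 for ARR6 and 0.0539 for ARR8, so that none of the calls held. In ein2-5, ARR3 was lost without any of 9 of the 12 libraries (adjusted p of 0.0522 to 0.129). ARR6 was lost without replicate 3 of AA at 3 h (adjusted p = 0.0636), of AA at 24 h (adjusted p = 0.0892) or of MS at 3 h (adjusted p = 0.0568). ARR8 was lost without replicate 2 (adjusted p = 0.0813) or 3 (adjusted p = 0.0723) of AA at 3 h or replicate 3 of AA at 24 h (adjusted p = 0.102). It was also lost without replicate 1 of MS at 3 h (adjusted p = 0.0774) or replicate 2 (adjusted p = 0.100) or 3 (adjusted p = 0.0611) of MS at 24 h. ARR9 (-0.46 ± 0.17) passed without replicate 3 of MS at 24 h (adjusted p = 0.0335).

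The AA response was not shown to differ between genotypes for any member. At 3 h 0 of 9 passed the interaction (0.0706% of all genes called). ARR3, at 0.94 ± 0.40 (adjusted p = 0.598), had a smaller AA difference in ein2-5, and ARR6, at -0.65 ± 0.24 (adjusted p = 0.487), a larger one, and these 2 had an unadjusted p under 0.05. At 24 h 0 of 9 passed (0.296% of all genes called) and 0 had an unadjusted p under 0.05. DESeq2 called 0 at either time. From 3 h to 24 h of AA, ARR6 moved differently in the genotypes, with 5.70, 7.29 and 9.49 CPM at 24 h and 4.80, 4.83 and 3.47 CPM at 3 h in ein2-5. Wild type had 8.13, 6.28 and 6.20 CPM at 24 h and 7.16, 8.75 and 7.38 CPM at 3 h. The ein2-5 groups lay apart and the wild-type groups overlapped, and the genotypes differed by 0.96 ± 0.24 (adjusted p = 0.0216, 2.94% of all genes called, a test chosen after the data had been seen).

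The rest of the cytokinin pathway was described with 6 lists of 61 genes. Counts called in these lists are to be read beside the shares of all tested genes. In MS at 3 h these were 17.3% higher and 14.4% lower in ein2-5, and 15.8% higher and 17.4% lower in wild type. With AA at 3 h they were 6.62% higher and 6.22% lower in ein2-5, and 6.20% higher and 3.80% lower in wild type. In untreated ein2-5 they were 1.51% higher and 2.82% lower. The 11 type B regulators, which activate the type A genes, had 6 tested members, among which ARR1 was the one that moved most. In MS at 3 h 2 of 6 were lower in ein2-5, ARR1 (-0.66 ± 0.08) and ARR2 (-0.31 ± 0.10), and 3 of 6 in wild type, ARR1 (-0.86 ± 0.08), ARR2 (-0.47 ± 0.10) and ARR11 (-0.66 ± 0.23). The median of the type B genes was -0.22 in ein2-5 and -0.33 in wild type, where that of the type A genes was -0.97 in ein2-5 and -1.37 in wild type. In untreated ein2-5, ARR1 alone of the 6 was lower (-0.27 ± 0.08, adjusted p = 0.0365), and with AA at 3 h ARR2 was lower in ein2-5 (-0.34 ± 0.10) and in wild type (-0.32 ± 0.10). The calls of ARR2 in ein2-5 and with AA, that of ARR11 and that of ARR1 in untreated ein2-5 were each lost without some of the libraries, with adjusted p-values of up to 0.198.

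Of the 9 receptors and phosphotransfer proteins, the phosphotransfer protein gene AHP1 differed most between genotypes. It stood at 7.15 CPM in ein2-5 and 29.0 CPM in wild type when untreated (-2.02 ± 0.14, adjusted p = 3.78e-11) and was lower in ein2-5 in all 5 conditions. AHP4 was higher in untreated ein2-5 (1.49 ± 0.33, adjusted p = 0.00478), at 2.12 CPM against 0.744 CPM in wild type. In MS at 3 h in wild type 2 of 9 were higher (15.8% of all genes), AHP5 (0.98 ± 0.11) and AHP3 (0.32 ± 0.12). There, 2 were lower (17.4%), the receptor genes AHK2 (-0.59 ± 0.10) and AHK3 (-0.49 ± 0.08). AA at 3 h in wild type went with lower levels of the receptor gene AHK4 (-0.59 ± 0.10) and AHP1 (-0.77 ± 0.13) and a higher level of AHP4 (1.14 ± 0.33). In ein2-5 AHP1 (-0.73 ± 0.15), AHK4 (-0.41 ± 0.10) and AHK2 (-0.34 ± 0.10) were lower, and AHP4 (1.17 ± 0.28) and AHP6, an inhibitor of the relay (2.06 ± 0.67), were higher. AHP6 was near the floor, at 0.567 CPM with AA and 0.133 CPM in MS, and untreated ein2-5 stood at 0.556 CPM. Leaving out 1 library ended the calls of AHP3 (adjusted p of up to 0.146), of AHK2 with AA (up to 0.114), and of AHP6 (up to 0.158). It also ended the call of AHP4 in wild type with AA, at 0.62 without replicate 3 with AA (adjusted p = 0.324) and at 0.92 without replicate 3 in MS (adjusted p = 0.140).

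Of 18 genes of cytokinin synthesis 14 were tested. IPT3, which makes the cytokinin precursor in the vasculature, was higher in MS at 3 h, by 1.15 ± 0.12 in ein2-5 and by 0.75 ± 0.12 in wild type on the log2 scale. LOG1, which releases active cytokinin, was lower by 1.14 ± 0.14 in ein2-5 and by 0.60 ± 0.14 in wild type. The list had 1 higher and 2 lower members in ein2-5 and 2 higher and 1 lower in wild type. At 3 h of AA, CYP735A2, an enzyme of trans-zeatin synthesis, was lower (-1.31 ± 0.21 in ein2-5 and -1.49 ± 0.21 in wild type), and LOG7 was higher (0.93 ± 0.13 in ein2-5 and 0.71 ± 0.13 in wild type). There the list had 2 higher and 3 lower members in ein2-5 and 1 higher and 1 lower in wild type. In untreated ein2-5 0 of 14 were called.

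Among the 10 genes of cytokinin breakdown and conjugation, the oxidase gene CKX4 was higher in MS at 3 h (1.42 ± 0.14 in ein2-5 and 1.08 ± 0.14 in wild type). The oxidase gene CKX7 (-0.73 ± 0.11 in ein2-5 and -1.16 ± 0.11 in wild type) and the glucosyltransferase gene UGT76C2 (-0.85 ± 0.13 in ein2-5 and -1.05 ± 0.13 in wild type) were lower. The list had 2 higher and 4 lower members in ein2-5 and 1 higher and 3 lower in wild type. After 3 h of AA, 1 of 10, CKX4, was lower in ein2-5 (-0.76 ± 0.13) and 0 were called in wild type. In untreated ein2-5 0 of 10 were called.

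The KMD F-box proteins mark type B regulators for degradation, and 3 of the 4 genes were tested. In untreated ein2-5 all 3 were lower, KMD1 by 0.68 ± 0.12, KMD4 by 0.62 ± 0.12 and KMD2 by 0.54 ± 0.10 on the log2 scale. In MS at 3 h 1 of 3 was lower in ein2-5 and 3 of 3 in wild type. KMD1 was lower by 0.70 ± 0.13 in ein2-5 and by 1.95 ± 0.13 in wild type, a difference between genotypes of 1.25 ± 0.18 (adjusted p = 0.000145). KMD4 (-0.72 ± 0.12) and KMD2 (-0.28 ± 0.10) were lower in wild type, and KMD4 differed between genotypes by 0.85 ± 0.17 (adjusted p = 0.00665). The KMD4 difference was lost in a fit of only the libraries compared (adjusted p = 0.101). The KMD2 call was lost with upper-quartile factors (adjusted p = 0.063) and without replicate 1 in MS (adjusted p = 0.171) or replicate 3 untreated (adjusted p = 0.102). At 3 h of AA, KMD1 (0.68 ± 0.13 in ein2-5 and 1.06 ± 0.13 in wild type) and KMD2 (0.76 ± 0.10 in ein2-5 and 0.52 ± 0.10 in wild type) were higher.

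The last list held 9 genes, cytokinin response factors and genes induced by cytokinin. CGA1, a GATA factor induced by cytokinin, was lower in the medium, as most type A genes were. It stood at 3.62 CPM in MS at 3 h and 18.8 CPM untreated in ein2-5 (-2.37 ± 0.17, adjusted p = 2.67e-12), and at 5.80 CPM in MS at 3 h and 29.2 CPM untreated in wild type (-2.33 ± 0.17, adjusted p = 9.89e-13). It was lower in untreated ein2-5 than in wild type (-0.64 ± 0.15, adjusted p = 0.0106). In MS at 3 h the list had 2 higher and 2 lower members in ein2-5 and 1 higher and 3 lower in wild type. Among these were CRF3, higher (1.19 ± 0.24 in ein2-5 and 0.81 ± 0.24 in wild type) and GNC, a related GATA factor, lower (-0.47 ± 0.09 in ein2-5 and -0.45 ± 0.09 in wild type). CRF6, a factor known to answer oxidative stress, was higher with AA at 3 h (2.78 ± 0.18 in ein2-5 and 2.45 ± 0.18 in wild type), as was CRF5 (1.17 ± 0.16 in ein2-5 and 0.91 ± 0.16 in wild type). The list had 2 higher members and 1 lower in each genotype there, with GNC (-0.57 ± 0.09) the lower one in ein2-5 and LBD3 (-1.03 ± 0.24) in wild type. The genes of this list thus did not all move as the type A genes did. The CGA1 call between genotypes was lost without replicate 1 of wild type (adjusted p = 0.0929) or replicate 2 (adjusted p = 0.0732) or 3 (adjusted p = 0.0709) of ein2-5. The CRF3 call in wild type was lost without replicate 1 in MS (adjusted p = 0.0614).

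**Figure D5:**
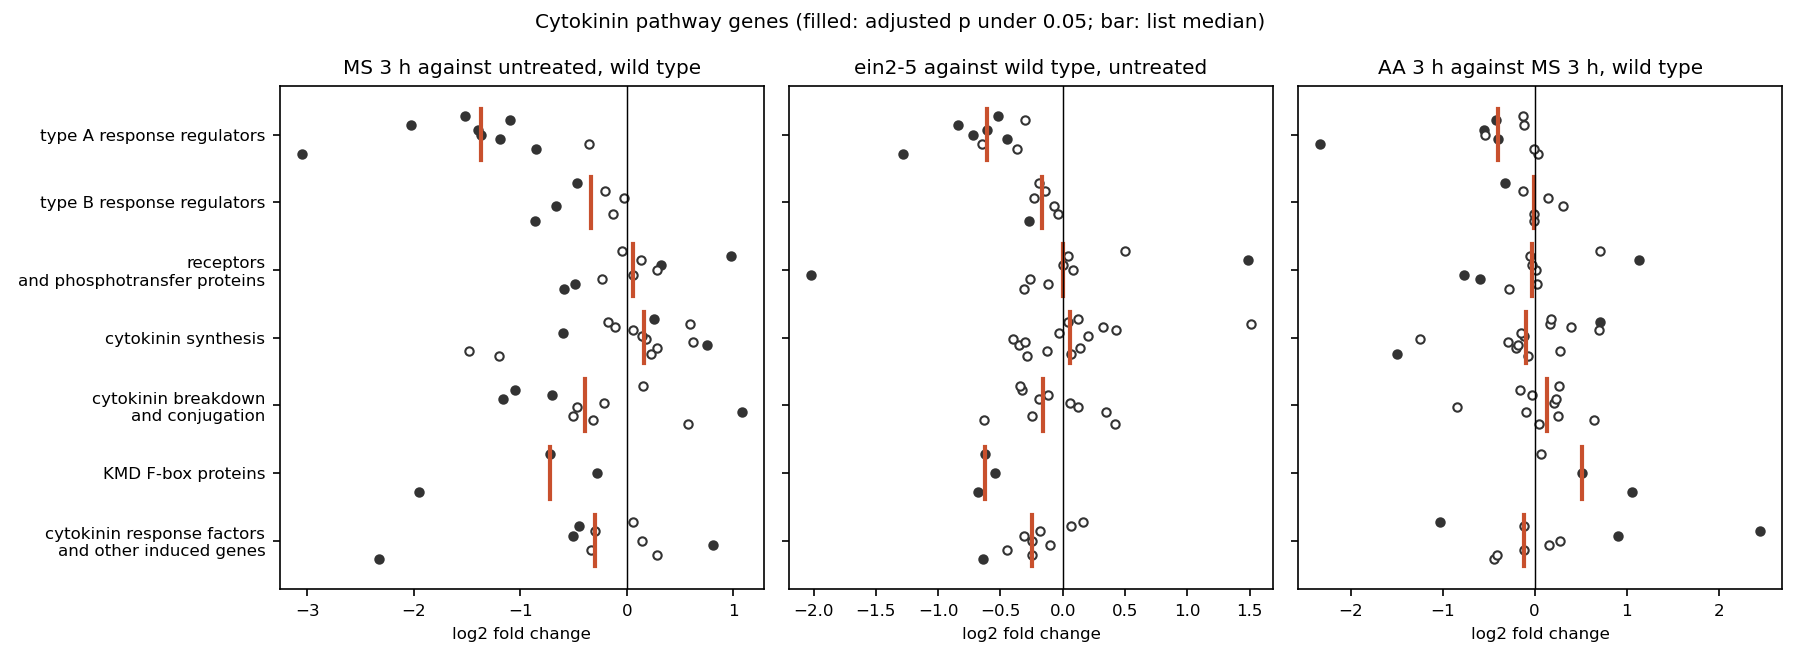
Log2 fold change (x axis) of each tested gene (points) of the type A family and the 6 other cytokinin lists (y axis), for wild type at 3 h in MS against untreated (left), for untreated ein2-5 against wild type (middle) and for wild type at 3 h with AA against MS (right), with filled points called at an adjusted p under 0.05 and bars at list medians. The type A median lies at -1.37, -0.61 and -0.40 in the 3 panels, and CRF6 lies at 2.45 in the right panel.

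Over the 30 libraries the members ran closely together in most pairs, as described by Pearson's r of log2 CPM. The libraries fall into 10 groups, so these values mostly repeat group differences and carry no p. The highest values were those of the close pairs ARR5 and ARR6 (r = 0.94) and ARR8 and ARR9 (r = 0.918). ARR4 with ARR9 (0.915) and with ARR8 (0.913), which are not close pairs, came next, above the close pair ARR7 and ARR15 (0.905). ARR3 and ARR4 had 0.742, and ARR3 and ARR16 had 0.382, the lowest of all pairs. The non-member genes most like the mean of the members were PIP2B (r = 0.949), GAMMA-TIP (0.931) and PIP3 (0.923), which are aquaporins, HA11, a plasma membrane proton pump (0.933), and ABCI21, an ATP-binding cassette protein (0.924). ARR7, ARR8 and ARR9 were called most often, in 10 of the 21 comparisons each. Closest to ARR7 were the sugar carrier STP1 (0.951), HMG1, an enzyme of isoprenoid synthesis (0.930), and emb2738 (0.911). Closest to ARR8 were the aquaporin PIP1;4 (0.936), AT1G23205 (0.931) and ABCI20 (0.917), and closest to ARR9 were the carbonic anhydrase BCA4 (0.963), the transcription factor BEE2 (0.949) and the chorismate mutase CM1 (0.947).

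The exons of 3 members share bases with genes on the opposite strand in the TAIR10.1 annotation, and the counting did not use strand, so that their reads cannot be told apart from those of their partners. ARR6 (chromosome 5, 25252007 to 25254318, minus strand) shares 348 bases with the protein-coding AT5G62910. ARR8 (chromosome 2, 17221840 to 17224880, plus strand) shares 299 bases with the noncoding AT2G09250, and ARR9 (chromosome 3, 21109059 to 21111567, plus strand) 190 bases with the noncoding AT3G08825. The values of these 3 genes are uncertain to that degree. The other members lie at 22065617 to 22067233 (ARR3), 3441988 to 3444360 (ARR4), 6577833 to 6579314 (ARR7) and 28131447 to 28133025 (ARR15) on the minus strand of chromosome 1. Positions are 17758427 to 17760950 (ARR5, minus strand) and 20905264 to 20906397 (ARR17, plus strand) on chromosome 3, and 16969673 to 16972113 (ARR16, plus strand) on chromosome 2. Read pairs that map to several places were split between them, and ARR3, ARR6, ARR16 and ARR17 had whole counts in every library. Among the others the largest rounding was 0.277% of a value, in ARR7.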

How the data were processed

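Poly-A messenger RNA of 30 libraries was sequenced as read pairs, per the labels' protocols. The authors deposited expected counts, that is read pairs per gene with pairs of several places split into fractions, made with featureCounts 2.0.3 without regard to strand, per the file headers. HISAT2, SAMtools and the build TAIR10 are named in the submitters' processing notes. Counts were rounded to whole numbers (6.31% of values were not whole), and 0 columns were left unused. Totals ran from 21.2 to 32.6 M.

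Genes that passed edgeR's filter (minimum count 10; 21256 of 27655) were scaled by TMM (factors 0.958 to 1.058) and fitted with edgeR 4.0.16 in R 4.3.3, with a mean for each of the 10 groups. The quasi-likelihood test gave 21 comparisons, with Benjamini-Hochberg adjustment within each over all tested genes. The SE is the log2 fold change divided by the root of F. Exon lengths, positions and upstream sequences came from RefSeq TAIR10.1, whose nuclear chromosomes are those of TAIR10. The test was also tried on data simulated from the means and spread of this fit.

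The members and lists were chosen with earlier results of these data known. All members are described; of each list up to 3 genes per direction with the smallest adjusted p were taken, of which those in the main comparisons are named, with EIN2, AOX1A and the genes most correlated with the members. Alternatives tried were factors by RLE or by upper quartile, no filter, DESeq2 1.42.0, a replicate block, only the libraries compared, and leaving out each library. The tests of the 24 h against 3 h step between genotypes were added after seeing the data and were not run under these alternatives. The labels do not say whether replicates are separate cultures, and the p-values cover no more than the spread among these 3 libraries per group.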

Additional observations from a re-analysis of the deposited data

Results flagged for a closer look

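Differences of an effect between groups were found for 4 members by a test of the difference itself. For ARR7 the difference of MS from untreated at 24 h differed between ein2-5 and wild type by 1.16 in log2 units (adjusted p = 0.000216), and its step from 3 h to 24 h in MS by 1.08 (adjusted p = 0.00271). ARR8 differed between the genotypes in that same step by -0.62 (adjusted p = 0.0278), and ARR6 in the step from 3 h to 24 h of AA by 0.96 (adjusted p = 0.0216). The tests of a step between genotypes were chosen after the data had been seen and were not repeated under any alternative. Of all genes, 4.01% were called for MS and genotype at 24 h, 1.76% for the step in MS and 2.94% for the step of AA. The AA effect differed between 24 h and 3 h for ARR3 by 1.17 in ein2-5 (adjusted p = 0.0453) and by 2.09 in wild type (adjusted p = 0.00027), and in ein2-5 for ARR6 by 0.86 (adjusted p = 0.0163) and for ARR8 by 0.51 (adjusted p = 0.0309). Of all genes, 4.30% in ein2-5 and 2.55% in wild type were called in that direction. In ein2-5 none of these calls of members held in a fit of only the libraries compared. The adjusted p there was 0.13 for ARR3, 0.0615 for ARR6 and 0.0539 for ARR8.

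For ARR5, ARR6, ARR7 and ARR8 every ein2-5 library lay on one side of the wild-type mean of log2 CPM in 1 condition and on the other side in another. That difference between conditions was not tested. The share of all genes that meet this rule was not computed, so it cannot be said whether the members met it more often than other genes. The single libraries of the genotypes overlapped for ARR5 with AA at 24 h and for ARR6 in MS at 24 h, and in the other conditions named here they did not. ARR5 had a log2 fold change of 0.32 with AA at 24 h and of -0.72 when untreated. ARR6 had -0.83 with AA at 3 h and 0.13 in MS at 24 h, and ARR7 had -0.76 with AA at 3 h and 0.32 in MS at 24 h. ARR8 had -0.33 with AA at 24 h and 0.24 in MS at 3 h.

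ARR17, which entered no comparison, had 19 counts in replicate 1 of ein2-5 with AA at 3 h. Replicates 2 and 3 of that same group had 0 counts, as had the 3 MS libraries of that genotype and time.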

How the results depend on the processing

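None of the 71 calls of members changed direction under any alternative run, while 35 of the 118 member results that were not called changed sign under at least 1. DESeq2, the replicate block and upper-quartile factors kept 71 calls each, RLE factors and no filter 70 each, and fits of only the libraries compared 66. Counts of members called moved with upper-quartile factors for AA against MS in ein2-5 at 24 h (2, against 1), and with DESeq2 for ein2-5 against wild type in MS at 3 h (2, against 1), for the interaction of MS and genotype at 3 h (1, against 0) and at 24 h (2, against 1). In fits of only the libraries compared they were 1, against 2, for wild type at 24 h of AA, 2, against 1, for the interaction of MS and genotype at 24 h, and 0, against 3, for the interaction of AA and time in ein2-5. They also called ARR6 lower at 24 h against 3 h in MS in wild type (adjusted p = 0.0481). Leaving out each library in turn gave 5 to 5 members for AA against MS at 3 h in ein2-5 and 2 to 5 in wild type, and at 24 h 1 to 3 in ein2-5 and 0 to 3 in wild type. For ein2-5 against wild type it gave 3 to 6 when untreated, 3 to 4 with AA at 3 h, 1 to 2 in MS at 3 h, 2 to 4 with AA at 24 h and 2 to 3 in MS at 24 h. MS against untreated gave 7 to 8 at 3 h in each genotype, and 7 to 8 in ein2-5 and 7 to 7 in wild type at 24 h. The interactions gave 0 to 0 for AA and genotype at either time, 0 to 1 at 3 h and 1 to 2 at 24 h for MS and genotype, and 0 to 3 in ein2-5 and 1 to 1 in wild type for AA and time. 24 h against 3 h in MS gave 2 to 2 in ein2-5 and 2 to 3 in wild type. Same-numbered libraries of different groups did not deviate together on average (mean r = -0.00409, against 0.00224 for other numbers). Single pairs of the same number ranged from -0.196 to 0.27, and a mean cannot show whether some libraries share a culture or day. With the replicate block the interaction of MS and genotype at 3 h had 1 call, ARR8, against 0. In wild type at 24 h of AA that block gained ARR8 (adjusted p = 0.0426). Over all genes, fits of only the libraries compared called 1728, against 2730, for AA against MS in ein2-5 at 3 h, 771, against 2215, for ein2-5 against wild type in MS at 3 h, 2116, against 3191, for MS against untreated in ein2-5 at 24 h, 2177, against 4361, for 24 h against 3 h in MS in ein2-5, 5, against 15, for AA and genotype at 3 h and 87, against 313, for MS and genotype at 3 h. AA and genotype at 3 h had 8 calls with the replicate block and 57 with DESeq2, which gave 152, against 63, at 24 h and 543 for MS and genotype at 3 h. The split into higher and lower calls for AA and genotype was 11 and 9 with RLE factors and 41 and 16 with DESeq2 at 3 h, against 6 and 9, and 23 and 45 with upper-quartile factors at 24 h, against 28 and 35. That for MS and genotype at 3 h was 185 and 110 with upper-quartile factors and 359 and 184 with DESeq2, against 252 and 61. The cause was not tested. Depth limits ARR3, ARR16 and ARR17, whose counts were low.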
